A study of Mus musculus with 12 samples.

Results

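Potassium channel genes were followed in bulk RNA from the striatum of mice that drank ethanol after saline or after varenicline. The genes were the rows of the deposited count table whose symbol begins with Kcn and a further lower-case letter. Of 98 such rows, 11 were left out: the G protein-gated inward rectifiers Kcnj3, Kcnj5, Kcnj6 and Kcnj9, then Kcnj13, the large-conductance channel Kcnma1 with its beta subunit Kcnmb4, the small-conductance channels Kcnn1, Kcnn2 and Kcnn3, and the transcript Kcnq1ot1. That left 87 potassium channel genes among the 24421 rows of the table. A total of 71 of them had at least 10 counts in at least 6 libraries and were tested, within a fit of 15111 genes. Of the 71, 66 reached 10 counts in all 12 libraries, and no tested gene did so in fewer than 4 libraries of either group. The other 16 were too low to test: Kcnmb3, Kcne1 and Kcnk16 had no count in any library, and the remaining 13 had at most 119 counts summed over all libraries.

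The 12 libraries came from bilateral striatum of male C57BL/6J mice, an inbred line known for its ethanol drinking. Ethanol was offered at 20% in Drinking-in-the-Dark, a limited-access test in which drinking lasted 2 h and began 3 h into the dark phase, over 3 cycles of 2 days. Every mouse received saline 30 min ahead of the second session of the first cycle. In the next 2 cycles, 6 libraries' animals received saline again and the other 6 received varenicline at 2 mg/kg, and tissue was taken when the last session ended. Varenicline, a smoking cessation drug, is a partial agonist of nicotinic acetylcholine receptors. Thus all groups had drunk ethanol and had been injected, and no group without ethanol was analysed here. The age of the mice is not stated in the sources used here, nor is whether 1 library stands for 1 mouse, so p-values measure the spread between these libraries, which may be partly technical. Libraries are numbered within their group in order of deposition, and a number pairs nothing.

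Potassium channels let potassium leave or enter the cell and so set the resting potential, end the action potential and space the spikes of a neuron. Voltage-gated (Kv) channels are built from pore-forming subunits with auxiliary subunits, inward rectifiers (Kir) pass current best near rest, and tandem-pore (K2P) channels carry leak current. In striatal projection neurons, Kir channels hold the membrane at a strongly negative rest, Kv4 channels give the A-type current that delays the first spike, and KCNQ channels give the slow M-type current; Kv3 channels serve the brief spikes of fast-spiking neurons.

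All 12 marker genes of striatal projection neurons were measured, and their mean level lay between 8.41 and 9.18 log2 CPM in every library (CPM, the usual count scaled to library size, here after TMM). Totals ran from 13340420 to 27917715 counts, at which 3 counts equal 0.109 to 0.221 CPM; this floor covers counting error only. The 87 genes together took between 0.550% and 0.620% of a library's counts. Markers of cortical excitatory neurons, 12 genes scored as their mean log2 CPM, ran from 5.16 to 5.89 with saline and from 3.17 to 5.76 with varenicline. Of these 12, 10 were lower and 0 higher with varenicline at an unadjusted p under 0.05. The library varenicline 6 held the highest cortical score of its group, 5.76, and the next was 4.72. Other lists were placed the other way. By the same criterion 5 of the 12 projection neuron markers were higher and 0 lower, with mean scores of 8.70 for saline and 8.94 for varenicline, and varenicline 6 was lowest of its group at 8.46. Of 8 septum and pallidum markers 7 were higher and 0 lower, with scores from 1.81 to 2.45 for saline and from 2.32 to 3.61 for varenicline. Varenicline 1 and 3 stood apart at 3.61 and 3.54. Varenicline 4 was at 2.60, and varenicline 2, 5 and 6 were inside the saline range. Of 8 mature oligodendrocyte markers 4 were higher and 0 lower, with scores from 9.02 to 9.32 and from 8.98 to 9.39. Fewer cells of a type and less RNA per cell cannot be told apart in bulk tissue, here and in every comparison that follows.

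The sequence just before the start site is shown for the pair of genes with the smallest p in each direction, since these genes recur in the values that follow. Kcna6 encodes a Shaker-type (Kv1) pore subunit, Kcnip4 a calcium-binding KChIP protein that attaches to Kv4 channels, Kcnj2 an inward rectifier, and Kcng3 a silent Kv subunit that makes no channel alone. The 250 bases before each start are given 5′ to 3′ on the gene's strand, from RefSeq on GRCm38.p6, with capitals marking each GC box, GGGCGG or its reverse complement CCGCCC. They lie at chr6:126740675-126740924 (minus strand) for Kcna6, chr5:49285660-49285909 (minus) for Kcnip4, chr11:111065914-111066163 (plus) for Kcnj2 and chr17:83631896-83632145 (minus) for Kcng3. In each case the next base downstream is the gene's first as the count table gives it, so the stretch lies just outside the first exon. The count table places Kcna6 at chr6:126708329-126740674 with 2 exons, Kcnip4 at chr5:48389503-49285659 with 11, Kcnj2 at chr11:111066164-111076825 with 2 and Kcng3 at chr17:83585957-83631895 with 2.
Kcna6: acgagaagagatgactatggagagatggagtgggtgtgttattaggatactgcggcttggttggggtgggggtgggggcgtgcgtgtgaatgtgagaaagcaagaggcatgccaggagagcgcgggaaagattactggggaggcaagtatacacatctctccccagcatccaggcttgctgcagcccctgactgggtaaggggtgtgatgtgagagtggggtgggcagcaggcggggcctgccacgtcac
Kcnip4: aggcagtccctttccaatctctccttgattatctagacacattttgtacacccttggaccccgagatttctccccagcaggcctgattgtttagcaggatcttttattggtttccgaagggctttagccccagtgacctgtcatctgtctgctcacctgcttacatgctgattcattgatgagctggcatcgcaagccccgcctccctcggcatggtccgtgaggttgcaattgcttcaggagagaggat
Kcnj2: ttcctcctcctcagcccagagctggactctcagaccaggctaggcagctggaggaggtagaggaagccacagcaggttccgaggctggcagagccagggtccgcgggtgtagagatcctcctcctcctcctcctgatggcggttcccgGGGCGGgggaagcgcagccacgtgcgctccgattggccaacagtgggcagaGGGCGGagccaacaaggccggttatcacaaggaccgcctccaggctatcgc
Kcng3: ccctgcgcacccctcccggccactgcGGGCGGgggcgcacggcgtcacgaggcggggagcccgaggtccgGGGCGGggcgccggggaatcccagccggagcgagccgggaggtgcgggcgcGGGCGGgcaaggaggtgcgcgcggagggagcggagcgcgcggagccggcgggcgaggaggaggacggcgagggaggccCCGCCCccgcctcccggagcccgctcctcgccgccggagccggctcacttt
The Kcng3 stretch held 4 GC boxes and was 82.4% G or C, and that of Kcnj2 held 2 and was 65.6% G or C. Those of Kcna6 and Kcnip4 held 0, at 58.8% and 51.2% G or C. None of the 4 held a TATA box, searched as TATAAA on both strands. Promoters were found for 50 of the 71 tested genes, 72 in all since some genes have several. Of those 72, 34 (47.2%) held a GC box, against 32.7% of all 32851 RefSeq promoters of the same length, and 1 (1.39%) held a TATAAA, against 12.4%. The E-box CACGTG was in 5 (6.94%, against 6.02% of all), and the cyclic AMP response element TGACGTCA in 0 (against 1.55%). Median G or C content was 59.6% for these 72 and 52.4% for all. A match of letters describes the sequence and is not evidence of binding.

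Levels per length spanned a wide range. On the RPKM scale (CPM per kilobase of exon, from the counts and the deposited exon lengths), 8 genes had a median over the 12 libraries above 50, 28 were above 10 and 61 were above 1. Kcnip2, a KChIP subunit of Kv4 channels, was highest with a median RPKM of 152 and a range of 129.9 to 182 over the libraries. The cytoplasmic Kv1 beta subunits Kcnab1 and Kcnab2 followed, at median RPKMs of 112 and 89.1. Their ranges over the libraries, 81.5 to 144 and 74.2 to 106 RPKM, overlapped, so that the order of this pair does not stand out from the spread. The inward rectifier Kcnj4 had a median of 80.1 RPKM. Kcnj10, the main inward rectifier of glia, had a median RPKM of 62.7, Kcnt1, a sodium-activated channel, 53.2, and Kcnk1, a K2P channel, 50.04. Among the K2P genes Kcnk1 was followed by Kcnk2 at 35.3 RPKM and then by Kcnk9 at 7.15 RPKM. Ranks on the deposited FPKM were close to these across the 71 genes (Spearman rho 0.991 over genes, which are not independent), but not the same. Kcnip3, at a median of 43.5 RPKM, ran from 48.2 to 71.2 on the FPKM scale, while Kcnt1 ran from 41.0 to 56.3.

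**Figure D1:**
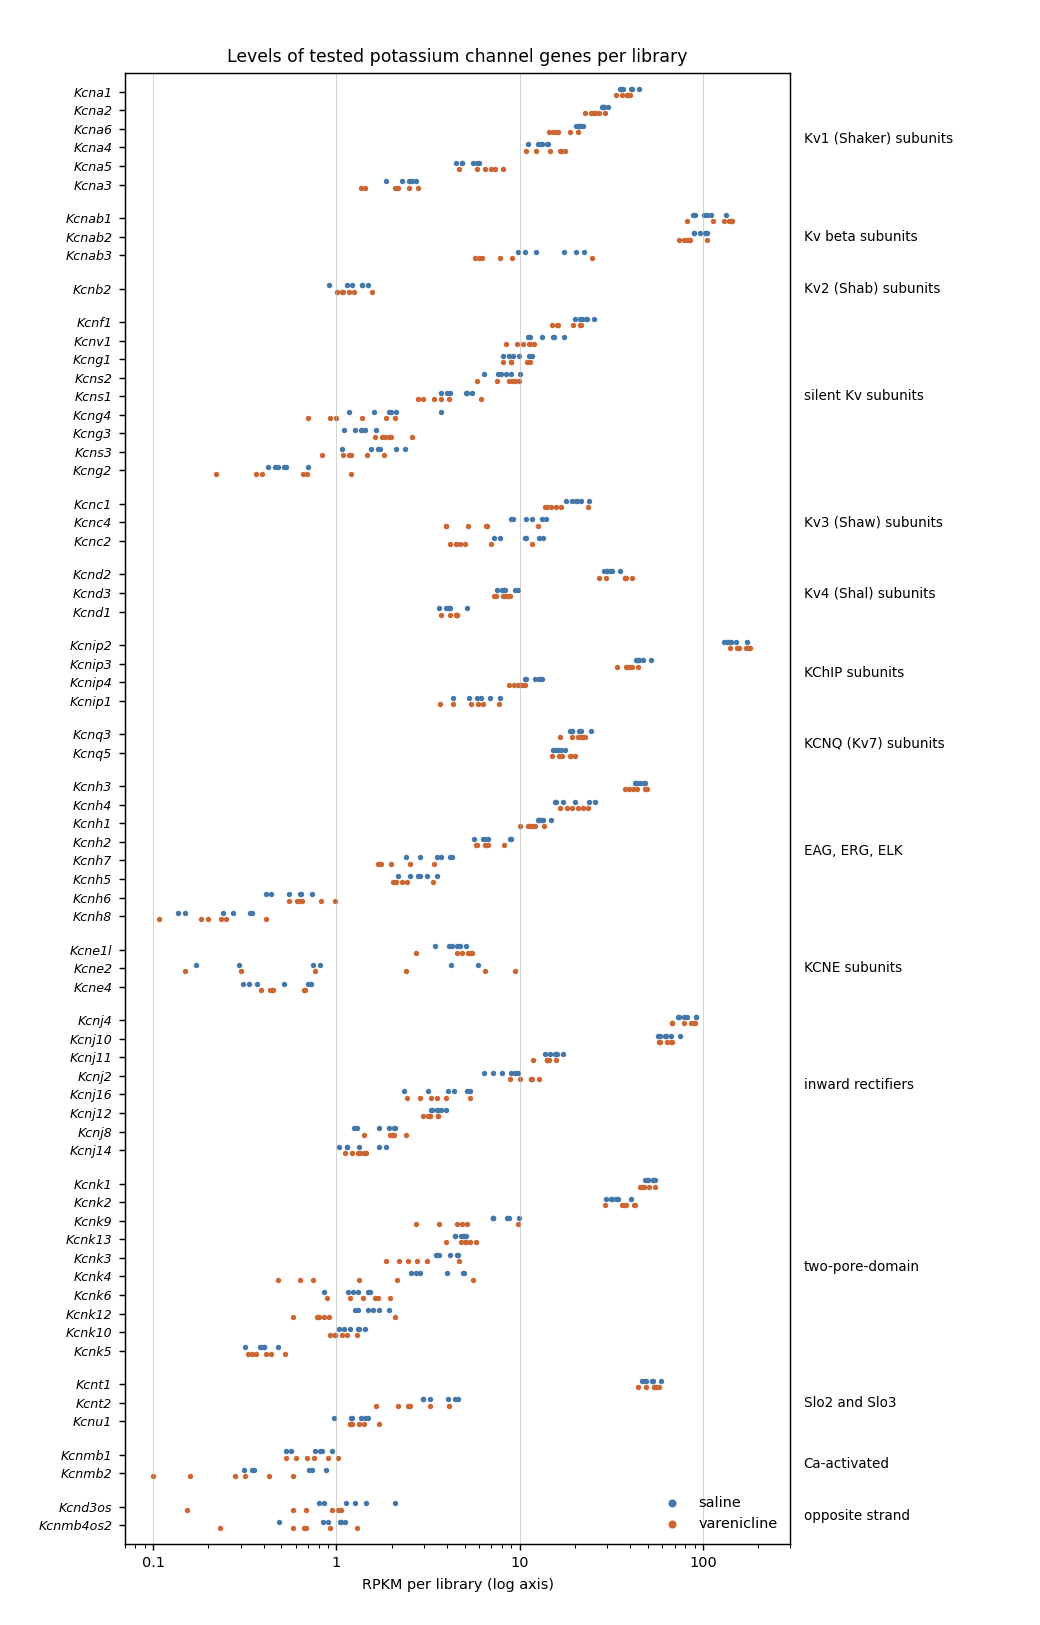
RPKM of 67 tested potassium channel genes on a log axis, 1 point per library, saline in blue and varenicline in orange, grouped by role and ordered by median within a role. Kcnip2 lies farthest right with a median of 152, and the colours overlap in every row but that of Kcnip4.

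For most of the 71 genes the varenicline libraries differed more among themselves than the saline libraries did, a description with no test. The median coefficient of variation of the 71 genes was 14.1% with saline and 17.4% with varenicline, and it was larger with varenicline for 55 of 71 genes. Over all tested genes these medians were 10.6% and 10.7%, and 55.1% of genes varied more with varenicline. With saline, 20 of the 71 genes had a coefficient of variation under 10%; Kcna6, at 123 ± 3.93 CPM (mean ± SD, n = 6), was among the tightest.

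The main comparison asked which of these transcripts differ between varenicline and saline. None of the 71 passed the threshold of edgeR's quasi-likelihood test (Benjamini-Hochberg adjusted p under 0.05), and of all 15111 genes 0 passed (0%). The smallest edgeR adjusted p among the 71 was 0.132. At an unadjusted p under 0.05, 4 genes were higher and 22 were lower with varenicline. These are 5.63% and 31% of the 71, beside 7.27% higher and 9.64% lower over all genes. The same shares over all genes belong beside the counts per family below, where few genes were tested and 1 call says little. The median log2 fold change, varenicline minus saline, was -0.11 over the 71 genes and 0.01 over all genes, and 47 of the 71 were negative. Sizes were modest: the median absolute log2 fold change was 0.187, against 0.0986 over all genes. Groups that do not overlap, every varenicline library on 1 side of every saline library, were found for 1 gene, Kcnip4, which was lower; over all genes 0.430% did not overlap with varenicline higher and 0.324% with varenicline lower. By DESeq2, 5 of the 59 genes with an adjusted p passed as lower (8.47%) and 2 as higher (3.39%), beside 2.06% and 1.12% of all genes with one. Those called lower by DESeq2 were Kcna6, Kcnip4, Kcnh7, Kcnv1 and Kcnip3, the last at a DESeq2 adjusted p of 0.0498, and those called higher were Kcnj2 and Kcng3.

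**Figure D2:**
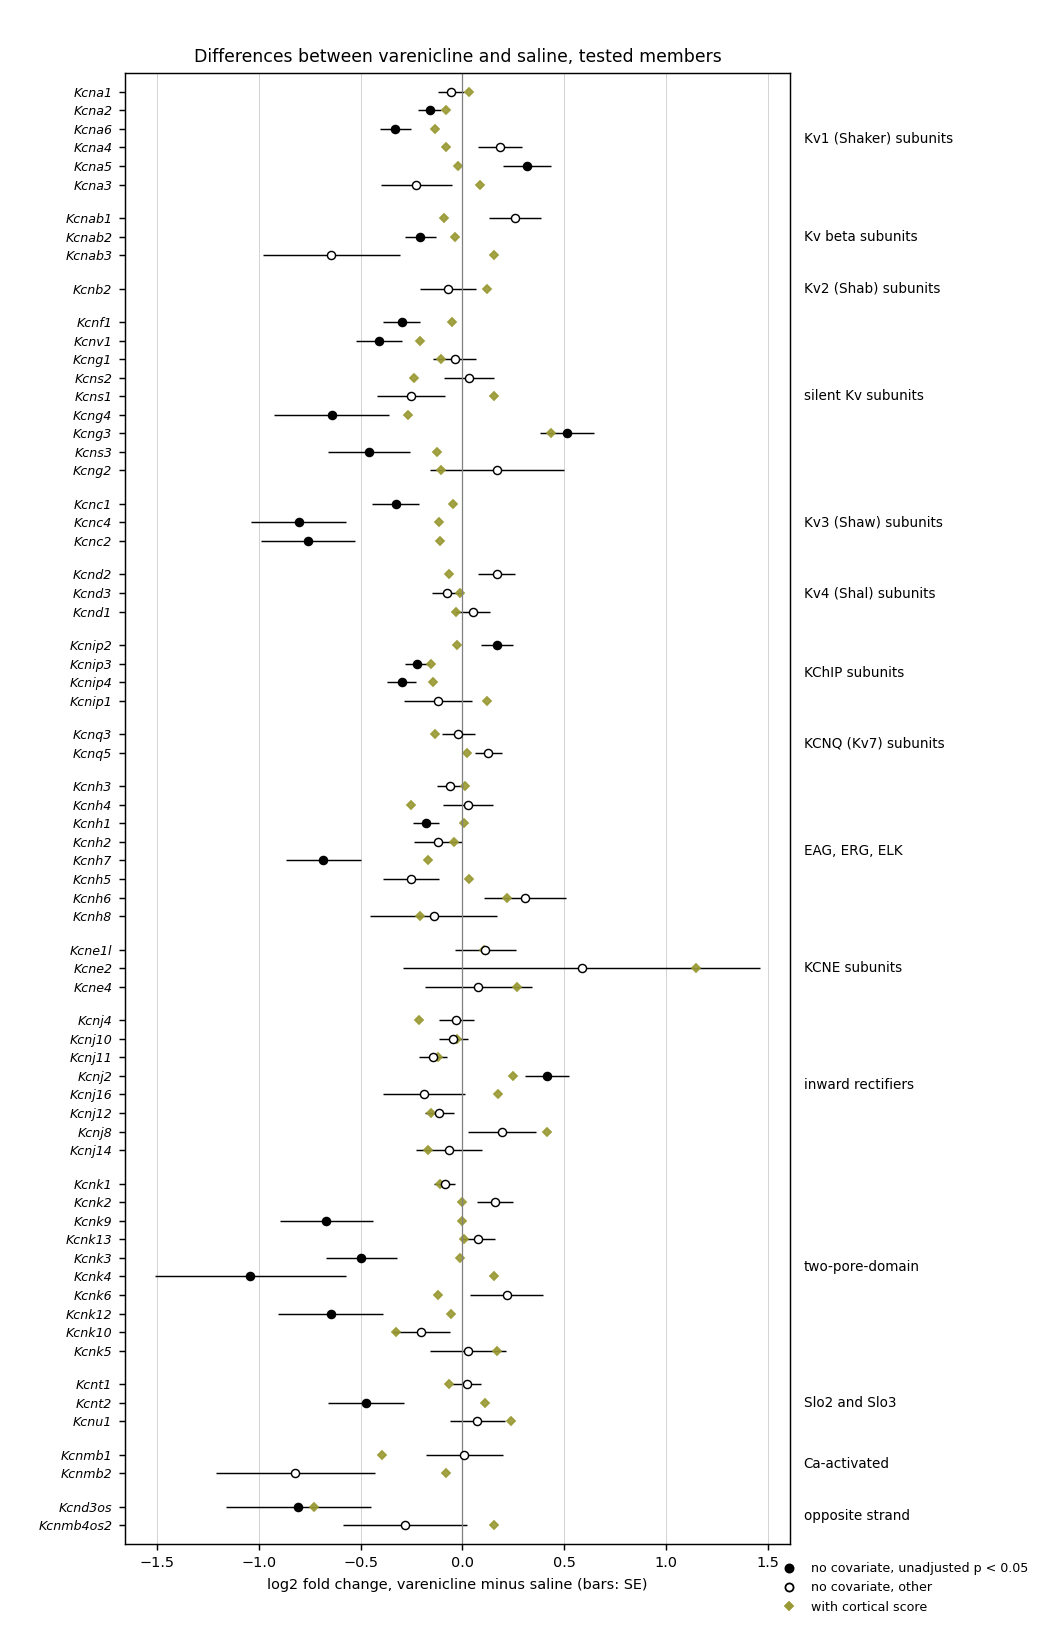
log2 fold change (varenicline minus saline) of 67 tested genes with its standard error, by role; filled circles have an unadjusted p under 0.05 and diamonds show the value with the cortical marker score as a covariate. Of the genes shown, filled circles lie left of 0 for 20 and right of it for 4, and the diamonds of all 24 lie nearer to 0. These 24 were picked by p in the fit without the covariate, which favours values far from 0 in that fit.

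The Kv1 pore subunits, whose channels open at low voltage and limit firing, comprised 8 genes, of which 6 were tested; 2 were higher and 4 lower, with 1 and 2 at an unadjusted p under 0.05. Kcna6 measured 118, 122 and 129.7 CPM with saline (lowest, median, highest) and 83.9, 92.5 and 121 CPM with varenicline. Only varenicline 6, at 121 CPM, entered the narrow saline range, and every varenicline library was below the mean of saline. The log2 fold change of Kcna6 was -0.33 (standard error 0.0765, edgeR adjusted p = 0.132). Kcna2, which shares axonal channels with Kcna1, ran at 325, 330.2 and 353 CPM with saline and 262, 296 and 338 CPM with varenicline (log2 fold change -0.16, SE 0.0565). Kcna1 itself differed by less than its spread, at 350.2 ± 34.0 against 337 ± 21.0 CPM (SD, n = 6 each). Kcna5, a delayed rectifier subunit, was placed the other way, at 13.6, 15.6 and 18.1 CPM with saline and 14.0, 20.2 and 24.5 CPM with varenicline. Its log2 fold difference was 0.32 (standard error 0.119, edgeR adjusted p = 0.198), and varenicline 6 was the 1 drug library below the saline mean. Kcna5, Kcna1 and Kcna6 lie side by side on chromosome 6 in that order, with gaps of 100907 and 62527 bases, and had log2 fold changes of 0.32, -0.06 and -0.33. Kcna3 and Kcna4 had log2 fold changes of -0.23 and 0.18, while Kcna7 and Kcna10 were too low to test, with 2 and 17 counts in all.

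The beta subunits, which bind Kv1 pores from the cytoplasm, were split. Kcnab1 measured 306, 358 and 464 CPM with saline and 283, 467 and 501 CPM with varenicline, a log2 fold change of 0.26 (standard error 0.129, edgeR adjusted p = 0.322). Here 5 of 6 varenicline libraries were above the saline mean and varenicline 6, at 283 CPM, was the lowest of all 12. Kcnab2, at an unadjusted p under 0.05, had a log2 fold change of -0.21, with 336, 377 and 400.4 CPM for saline and 281, 312 and 400.3 CPM for varenicline. Kcnab3 covered 24.7 to 56.9 CPM with saline; 5 varenicline libraries lay between 14.5 and 22.9 CPM and varenicline 6 reached 62.7 CPM.

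Kv2 channels carry the bulk of the delayed rectifier current in many neurons. Of their genes, Kcnb2 was scarce, at a median of 1.19 RPKM, and had a log2 fold change of -0.07.

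Silent Kv subunits do not form channels alone but join Kv2 subunits and alter their gating. Of 10 such genes 9 were tested, 3 higher and 6 lower, with 1 and 4 at an unadjusted p under 0.05. Kcng3 measured 3.68, 4.61 and 5.51 CPM with saline and 5.42, 6.32 and 8.71 CPM with varenicline. The ranges met only where saline 4, at 5.51 CPM, lay above varenicline 6, at 5.42 CPM. Its log2 fold difference was 0.51 (standard error 0.132, edgeR adjusted p = 0.138), and all 6 varenicline libraries were above the saline mean. Kcnv1 lay lower, at 50.2, 63.8 and 78.7 CPM against 38.0, 48.6 and 53.9 CPM, a log2 fold change of -0.41 (standard error 0.111, edgeR adjusted p = 0.141). Kcnf1 ran from 96.2 to 123 CPM with saline and from 72.1 to 103 CPM with varenicline, where varenicline 1 and varenicline 6 were inside the saline range and the other 4 were below it. Its log2 fold difference was -0.30 (standard error 0.0919, edgeR adjusted p = 0.151). Kcng4 and Kcns3, at medians of 1.73 and 1.51 RPKM, had log2 fold changes of -0.64 and -0.46. The remaining 4, Kcng1, Kcng2, Kcns1 and Kcns2, lay between -0.25 and 0.17 on the log2 scale.

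The Kv3 genes Kcnc1, Kcnc2 and Kcnc4 each had a negative log2 fold change and an unadjusted p under 0.05. Kv3 channels repolarise fast and are known for their role in parvalbumin interneurons and in many cortical neurons. Kcnc4 measured 27.1, 33.8 and 42.1 CPM with saline and 11.9, 17.6 and 38.1 CPM with varenicline. For this gene 5 of 6 varenicline libraries, up to 20.04 CPM, were below every saline library, and varenicline 6 at 38.1 CPM was inside the saline range. The log2 fold change of Kcnc4 was -0.80 (standard error 0.235, edgeR adjusted p = 0.147). Kcnc2 had the same arrangement, at 44.9, 66.3 and 83.4 CPM against 25.8, 30.2 and 72.1 CPM (log2 fold change -0.76, standard error 0.232, edgeR adjusted p = 0.149). For Kcnc1 the log2 fold change was -0.33, and varenicline 6, at 221 CPM, stood above the other 5 drug libraries, which ran from 129 to 157 CPM. The score of 8 interneuron markers ran from 5.06 to 5.27 with saline and from 4.64 to 5.32 with varenicline, where varenicline 6 was highest. At an unadjusted p under 0.05, 3 of the 8, Sst, Npy and Vip, were lower and 0 higher. Pvalb, the parvalbumin gene, had a log2 fold change of -0.37 (edgeR unadjusted p = 0.163), and its groups overlapped. Lhx6, Kit and Nos1 were at -0.06, -0.05 and 0.01. The list of 8 includes Chat, which marks cholinergic and not GABAergic interneurons. Chat had a positive log2 fold change of 0.22 at an unadjusted p of 0.145. The part of interneurons in the Kv3 values was not tested.

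Genes of the A-type channel had fold changes of both signs among pore and among auxiliary subunits. Kcnd2, the main Kv4 pore gene here at a median of 31.5 RPKM, measured 131, 139 and 161 CPM with saline and 123, 169.9 and 186 CPM with varenicline (log2 fold change 0.17, SE 0.0898). In 4 of 6 varenicline libraries Kcnd2 was above all saline libraries, and the others, varenicline 1 and 6, were within or below the saline range. Kcnd1 and Kcnd3 had log2 fold changes of 0.05 and -0.08. Of the KChIP genes, Kcnip2 measured 323, 349.9 and 434 CPM with saline and 348, 409 and 452 CPM with varenicline, a log2 fold change of 0.17 (standard error 0.0774, edgeR adjusted p = 0.279). Kcnip3, which encodes a KChIP also known as the repressor DREAM, was at 155, 159 and 186 CPM against 122, 141 and 158 CPM. Its log2 fold difference was -0.22 (standard error 0.0633, edgeR adjusted p = 0.146), and varenicline 2 was the 1 drug library inside the saline range. Kcnip4 measured 31.8, 36.9 and 39.3 CPM with saline and 25.9, 29.6 and 31.6 CPM with varenicline. Its groups were separate by a narrow margin, saline 6 at 31.8 CPM against varenicline 6 at 31.6 CPM, with a log2 fold change of -0.30 (standard error 0.0711, edgeR adjusted p = 0.132). In the deposited FPKM the Kcnip4 groups overlapped, with saline 6 at 15.98 and varenicline 6 at 17.97, while those of Kcng3 did not, from 1.11 to 1.65 with saline and from 1.69 to 2.68 with varenicline. An exon of Kcnip4 overlaps the opposite-strand gene 5730480H06Rik. Exons of Kcnd3, Kcnd3os, Kcnh3, Kcnk3, Kcnmb4os2 and Kcnt2 also overlap a gene on the other strand, and since the sources used here do not say whether counting used strand, the counts of these 7 are uncertain. Kcnip1 had a log2 fold change of -0.12.

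**Figure D3:**
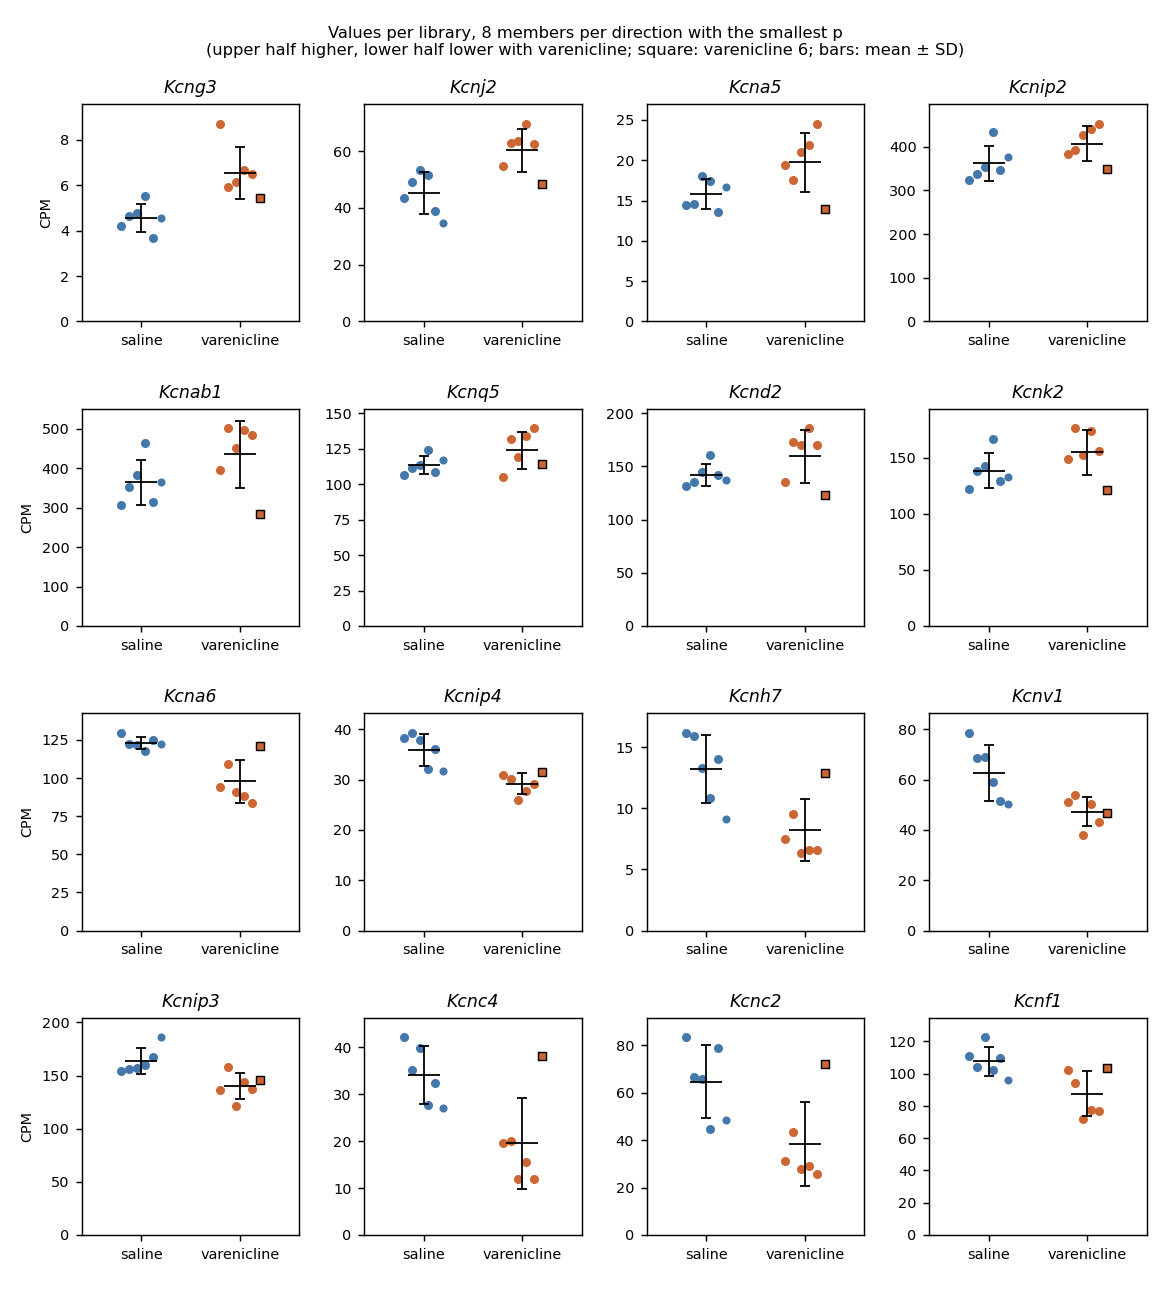
CPM per library for the 8 genes with the smallest p in each direction, higher genes in the upper rows and lower genes in the lower rows, with mean and SD; the square is varenicline 6. For Kcnc4 and Kcnc2 the square, at 38.1 and 72.1 CPM, lies among the saline points, while the other varenicline points lie below them.

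Of the KCNQ genes, Kcnq3 averaged 59.9 ± 6.26 CPM in the saline and 59.0 ± 6.55 CPM in the varenicline libraries, a log2 fold change of -0.02. Kcnq5 was at 106, 112 and 124 CPM against 105, 125 and 139 CPM (log2 fold change 0.13, standard error 0.0666, edgeR adjusted p = 0.345).

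Among the 8 EAG, ERG and ELK genes, 2 were higher and 6 lower, with 0 and 2 at an unadjusted p under 0.05. Kcnh7, an ERG subunit, measured 9.15, 13.7 and 16.2 CPM with saline and 6.36, 7.07 and 12.9 CPM with varenicline. Its log2 fold difference was -0.68 (standard error 0.183, edgeR adjusted p = 0.138), every varenicline library was below the mean of saline, and varenicline 6 was again the highest of them. Kcnh1, an EAG subunit, had a log2 fold change of -0.18. The most abundant genes of the group were the ELK subunits Kcnh3 and Kcnh4, at medians of 43.7 and 19.6 RPKM, and their log2 fold changes were -0.06 and 0.03.

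Of 10 inward rectifier genes 8 were tested, and 1 reached an unadjusted p under 0.05. Kcnj2, whose channel helps to hold the resting potential of projection neurons, measured 34.9, 46.3 and 53.5 CPM with saline and 48.3, 62.7 and 69.7 CPM with varenicline. Varenicline 6 was at 48.3 CPM, and the other 5 drug libraries, from 54.9 CPM upwards, were above every saline library. The log2 fold change of Kcnj2 was 0.42 (standard error 0.107, edgeR adjusted p = 0.138). Kcnj4, the far more abundant relative of the same subfamily, had a log2 fold change of -0.03, with 157, 172 and 198 CPM against 146, 177 and 195 CPM. Kcnj10 was at 345 ± 36.3 and 335 ± 26.0 CPM (SD, n = 6 each), a difference within the spread of either group. Kcnj11 and Kcnj8, the pore subunits of ATP-sensitive channels, had log2 fold changes of -0.14 and 0.20. Kcnj16, the neighbour of Kcnj2 on chromosome 11 at a gap of 38196 bases, had a log2 fold change of -0.19 against 0.42 for Kcnj2. For the positive Kcnj2, Kcna5, Kcnip2 and Kcnab1, varenicline 6 was the lowest drug library, as it was for the projection neuron and oligodendrocyte scores. The part of those cells, and of septum and pallidum, in these values was not tested.

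The K2P family held 14 genes, of which 10 were tested; 4 were higher and 6 lower, with 0 and 4 at an unadjusted p under 0.05. Those 4 were the acid-sensitive channels Kcnk9 and Kcnk3, the mechanically gated Kcnk4, and Kcnk12, all with medians of 7.15 RPKM or less. Kcnk9 measured 8.63, 9.46 and 11.99 CPM with saline and 3.26, 5.69 and 11.8 CPM with varenicline, a log2 fold change of -0.67 (standard error 0.228, edgeR adjusted p = 0.178). For Kcnk4 the log2 fold change was -1.04 with an SE of 0.469; 5 varenicline libraries lay between 0.837 and 3.69 CPM, and varenicline 6 at 9.64 CPM was the highest of all 12. The value of Kcnk4 was -1.82 without varenicline 6 and turned to 0.16 (SE 0.204) with the cortical score as a covariate. That of Kcnk12 was -0.65, and -0.98 without varenicline 6. The abundant K2P genes differed little, Kcnk1 with a log2 fold change of -0.09 and the mechanosensitive Kcnk2 with 0.16 (standard error 0.0884, edgeR adjusted p = 0.366).

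The sodium-activated Kcnt1 was at 321 ± 28.3 CPM with saline and 326 ± 31.1 CPM with varenicline, and the related Kcnt2, far scarcer, had a log2 fold change of -0.47, which turned to 0.11 (SE 0.121) with the cortical score as a covariate. Of the 4 genes for calcium-activated channels that the rule kept, Kcnmb1 and Kcnmb2, beta subunits of the large-conductance channel, were tested, with log2 fold changes of 0.01 and -0.82 (SE 0.191 and 0.390). The KCNE genes, small membrane proteins that join Kv pores, were low: Kcne1l had a median of 4.65 RPKM and a log2 fold change of 0.11. Kcne2 varied by library rather than by group. It lay at 10.1 and 7.12 CPM in saline 2 and 5 and at 15.9, 4.07 and 10.95 CPM in varenicline 1, 2 and 5, while the other 7 libraries had between 0.251 and 1.38 CPM. Those 5 libraries also had the highest choroid plexus scores, 4.21 to 5.54 against 1.84 to 3.00 in the rest, over 6 marker genes of which 0 differed between groups at an unadjusted p under 0.05. Kcne2 is known as a choroid plexus gene, and the part of that tissue in its level was not tested. The opposite-strand transcript Kcnd3os had a log2 fold change of -0.81 (SE 0.356), at 0.878, 1.31 and 2.27 CPM against 0.167, 0.884 and 1.16 CPM, the lowest being close to the floor.

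These values depended on the library varenicline 6 and on whether the cortical score was in the fit. Of the 22 lower genes, 16 to 21 were below the whole saline range in each of varenicline 1 to 5, and 4 were in varenicline 6. In 19 of the 22, which were picked for being lower in these same libraries, varenicline 6 was the highest drug library. It was the highest in 38 of all 71 tested genes. Over all 71 genes, the number below the saline range was 36, 22, 32, 29 and 31 in varenicline 1 to 5 and 14 in varenicline 6, and the number above it was 5, 9, 10, 11, 12 and 17. These positions were counted for the channel genes only, with no share over all genes beside them. A trait of these genes therefore cannot be told apart from one of the libraries as a whole. Without varenicline 6, edgeR called 22 of the 71 genes lower (31%) and 5 higher (7.04%) at an adjusted p under 0.05, beside 7.16% and 3.60% of all genes in that fit. Of those 22 and 5, 19 and 3 were among the genes at an unadjusted p under 0.05 with all libraries. Without it, Kcnc4 had a log2 fold change of -1.10 (edgeR adjusted p = 0.000836), Kcna6 -0.39 (edgeR adjusted p = 0.00121) and Kcnj2 0.48 (edgeR adjusted p = 0.00727). No other library, left out alone, gave a call among the 71.

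**Figure D4:**
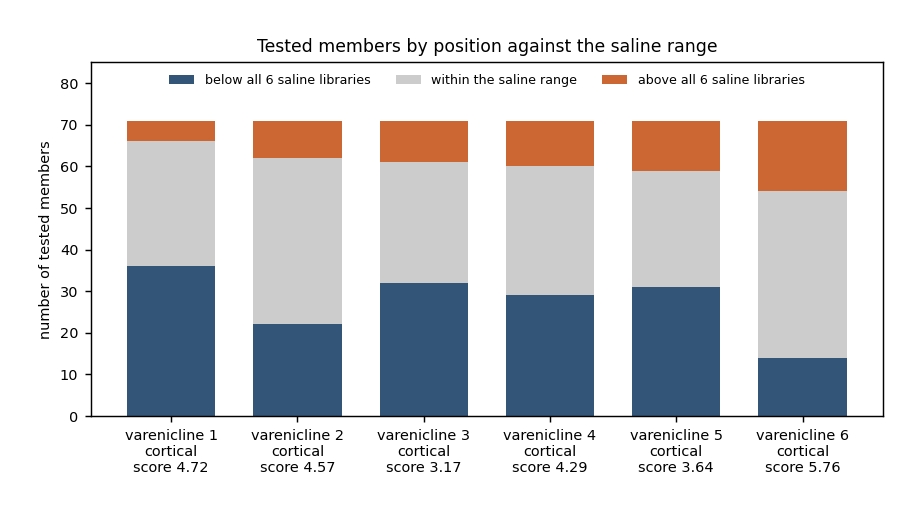
Number of the 71 genes below, within and above the range of the 6 saline libraries, for each varenicline library, with its cortical score. Varenicline 6, at a score of 5.76, has 14 genes below the range, and the other 5 libraries have 22 to 36. The same numbers were not counted over all genes.

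With the cortical score as a covariate, 1 gene was higher (Kcng3) and 1 lower (Kcnj4) at an unadjusted p under 0.05, beside 2.93% and 1.91% of all genes, and none of the 71 passed edgeR's adjusted threshold. The 26 genes above had a median absolute log2 fold change of 0.436 without the covariate and 0.109 with it. The value was nearer to 0 for all 26, which were picked by p in the fit without the covariate. For the 71 genes, with no such choice, that median was 0.187 without the covariate and 0.111 with it. Over all tested genes it was 0.0986 and 0.0836. Kcnc4 was at -0.11 (SE 0.117), Kcnc2 at -0.11 (SE 0.163), Kcna6 at -0.14 (SE 0.0733), Kcnip4 at -0.15 (SE 0.0838) and Kcnj2 at 0.25 (SE 0.137). Kcng3 went from 0.51 to 0.43 (SE 0.183) and Kcnd3os from -0.81 to -0.73. Genes that had been positive, Kcna5, Kcnip2, Kcnab1, Kcnd2 and Kcnk2, were at -0.024, -0.028, -0.093, -0.066 and -0.0021. Among all 71 tested genes, 27 changed sign with the covariate. Of the 22 lower genes, 3 did so: Kcnk4, Kcnt2 and Kcnh1 were at 0.16, 0.11 and 0.0067. With the covariate and without varenicline 6 these 3 were at -0.098, 0.23 and 0.015. Kcnj4, with a log2 fold change of -0.03 before, had -0.22 (SE 0.0983). With the covariate and without varenicline 6, 1 gene was higher and 4 were lower at an unadjusted p under 0.05. In that fit 9.92% of all genes reached it, higher and lower together, and the median log2 fold change of the 71 was -0.13. The median absolute value there was 0.192 for the 71 and 0.159 for all genes. Without varenicline 6 and with no covariate, these medians were 0.232 and 0.118. In the fit with the covariate and without varenicline 6, Kcnc4 was at -0.30 (SE 0.173), Kcnc2 at -0.32 (SE 0.245) and Kcna6 at -0.22 (SE 0.103). There Kcnip4 was at -0.05 (SE 0.122) and Kcnj2 at 0.41 (SE 0.196). Since the score itself was lower in 5 of the 6 drug libraries than in any saline library, drug and cortical marker level cannot be told apart among those 5.

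Genes that handle potassium outside the channel family were read from a list of 26 partners, all tested. Of these, 9 were higher and 17 lower, with a median log2 fold change of -0.04. At an unadjusted p under 0.05, 2 were higher and 5 lower, beside 7.27% and 9.64% of all genes. By edgeR with all libraries, 0 of the 26 passed the adjusted threshold. Amigo1, a membrane partner of Kv2 channels, measured 96.6, 98.3 and 103 CPM with saline and 80.2, 86.2 and 98.1 CPM with varenicline, a log2 fold change of -0.19 (standard error 0.0516, edgeR adjusted p = 0.140). Amigo1 did pass by DESeq2 (adjusted p = 0.0378) and by edgeR without varenicline 6 (adjusted p = 0.00625). Slc12a2, which loads chloride into cells together with potassium, was at 124, 138 and 156 CPM with saline and 125, 160.0 and 182 CPM with varenicline (log2 fold change 0.21, standard error 0.0789, edgeR adjusted p = 0.202, or 0.00887 without varenicline 6). Atp1b3, a beta subunit of the sodium-potassium pump, named after its values were seen, did not overlap between groups, at 132 to 139.5 CPM with saline and 139.8 to 153 CPM with varenicline. Partners of Kv1 channels at the axon, Cntnap2, Cntn2, Lgi1 and Adam22, had log2 fold changes between -0.05 and 0.04. Once the cortical score was a covariate, 0 of the 26 were at an unadjusted p under 0.05, beside 4.84% of all genes.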

How the data were processed

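RNA was sequenced as single reads of 150 nt from TruSeq libraries, per the labels' protocols. The authors deposited gene counts, which are whole numbers that were not normalized, with exon lengths per the file headers, and FPKM values that were used for checks and as an alternative. The submitters' processing notes name the build mm10 and, in no stated order, TopHat2, featureCounts, Trimmomatic, FastQC, Cuffdiff, Cuffnorm and DESeq2; versions, annotation and use of strand are not stated in the sources used here. Cuffnorm values were not used.

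Genes with at least 10 counts in at least 6 libraries were scaled by TMM and tested over the whole table with edgeR 4.0.16 (quasi-likelihood F test, R 4.3.3), varenicline against saline, and p was adjusted over all 15111 genes by Benjamini-Hochberg. Fold changes are log2. RPKM and marker scores (mean log2 CPM, prior count 2) were computed from the counts. Exons of 9 of the 87 genes overlap a gene on the other strand. Alternatives used other size factors and filters, DESeq2 1.42.0, limma 3.58.1 (voom with sample weights, and log2 FPKM plus 1 or 0.1), the cortical score as a covariate, and each library left out. All 66 pairs of libraries differed beyond sampling noise (lowest chi-square per degree of freedom 5.90). The tests were tried on simulated data. Genes named are the 8 per direction with the smallest p, the most abundant 1 or 2 per role, the 4 partners with the smallest p and those whose groups do not overlap; other members are given as values within their role. Some genes that enter the fit and the counts are not reported here. The channel genes, their roles and the lists were chosen with earlier results of these data known. Figures were drawn with matplotlib 3.10.9.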

Additional observations from a re-analysis of the deposited data

Results flagged for a closer look

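In 9 of 138 sets of 6 libraries (channel genes and named partners reported here, in each group), the highest or lowest library lay farther from the rest than Dixon's 95% limit; chance flags about 1 in 20 sets, or 6.9 here. Of the 9, 5 were varenicline 6, each time as the highest drug library, on the log2 CPM scale: Kcnab3 at 5.973 (other 5 between 3.864 and 4.524), Kcnk12 at 2.051 (0.2909 to 0.8992) and Kcnc1 at 7.787 (7.013 to 7.299). Kcnab2 at 8.645 (8.132 to 8.324) and Kcnh5 at 3.779 (3.064 to 3.306) complete the 5. That library also had the highest cortical score of its group, and its part in these values was not tested. Among other libraries, Kcnd3os was lowest in varenicline 3 at -1.939 (others -0.4719 to 0.3246), and Kcne1l was lowest in varenicline 1 at 2.002 (2.737 to 3.004). With saline, Kcna2 was highest in saline 2 at 8.465, where the others kept within 8.346 to 8.376, and Kcnmb4os2 was lowest in saline 6 at -0.2112 (0.5206 to 0.909).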

How the results depend on the processing

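The count of 0 channel genes past the adjusted threshold held with other size factors, other filters, both FPKM fits and the cortical covariate. It was 7 with DESeq2 and 29 with limma-voom and sample weights (3.18% and 13.9% of all genes), and from 0 to 27 with 1 library left out. Only leaving out varenicline 6 gave calls. The 26 genes at an unadjusted p under 0.05, beside 16.9% of all genes, became 2 with the cortical covariate (4.84% of all genes). They became 5 with that covariate and varenicline 6 left out (9.92% of all). With 1 library left out they ran from 17 (without varenicline 3, 13.4% of all) to 36 (without varenicline 6, 26.3% of all). The 7 partners became 11 with limma-voom (28.7% of all genes at that p), 0 with the covariate (4.84%) and 4 with the covariate without varenicline 6 (9.92%). The 1 gene whose groups do not overlap, Kcnip4, became 0 with library totals only, and from 0 to 19 with 1 library left out; leaving out varenicline 6 gave the 19, when 7.41% of all genes did not overlap. The median log2 fold change stayed negative, within its spread of 0.0868. Of 713 values for 31 named genes, 35 changed sign, in 16 genes, and 45 passed the threshold newly; the cause was not tested. With limma-voom Kcnj4 was at 0.091 and Kcnq3 at 0.074. With the covariate the reversed values were Kcna5 -0.024, Kcnip2 -0.028, Kcnab1 -0.093, Kcnd2 -0.066, Kcnk2 -0.0021, Kcnmb1 -0.40, Kcnh3 0.015, Kcnh4 -0.25, Kcna1 0.030 and Kcnt1 -0.068. With the covariate and without varenicline 6 they were Kcnip2 -0.043, Kcnv1 0.10, Kcnf1 0.027, Kcnmb1 -0.40, Kcnh4 -0.35, Kcne1l -0.22, Kcna1 0.13 and Kcnt1 -0.28. With 1 library left out, Kcnmb1 ran from -0.099 to 0.098, Kcnh4 from -0.029 to 0.12, Kcnj4 from -0.061 to 0.023, Kcnq3 from -0.047 to 0.035 and Kcnj10 from -0.067 to 0.011. A non-overlap count was not run for DESeq2, limma-voom, the other filters or the covariate. No paired analysis was possible because every title carries the same replicate label. Depth limits the scarce genes: 3 counts equal up to 0.221 CPM, beside levels near 1 CPM for Kcnd3os, Kcnh8 and Kcnmb2.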

Other observations

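Kcnu1, the pH-sensitive Slo3 channel best known from sperm, was counted in all 12 libraries. It measured 3.41, 4.53 and 5.22 CPM with saline (lowest, median, highest) and 4.19, 4.49 and 5.99 CPM with varenicline, a median of 1.27 RPKM, which is above that of Kcnh6 (0.628 RPKM) and of Kcnmb1 (0.756 RPKM). Its log2 fold difference was 0.07 (standard error 0.136, edgeR adjusted p = 0.823). No exon of another gene overlaps it in the annotation used.

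Kcnj12, a Kir2 subunit like Kcnj2 and Kcnj4, was at 17.4 ± 1.27 CPM in the saline and 16.1 ± 1.23 CPM in the varenicline libraries (SD, n = 6 each), so the log2 fold changes of these Kir2 genes were 0.42, -0.03 and -0.11 for Kcnj2, Kcnj4 and Kcnj12. Kcnk13, a K2P gene known from microglia, was at 14.9 ± 0.870 and 15.6 ± 1.86 CPM, and the score of 6 microglial markers ran from 5.78 to 5.99 with saline and from 5.73 to 6.06 with varenicline. Kcna3 and Kcna2 lie side by side on chromosome 3 at a gap of 63437 bases, and their log2 fold changes were -0.23 and -0.16.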
